A study of Homo sapiens with 20 samples.

Results

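FGF receptors, the ligand FGF19 and their partners were followed as 9 genes over 20 established human biliary tract cancer cell lines. The genes were taken by symbol: the receptor kinases FGFR1, FGFR2, FGFR3 and FGFR4, the receptor-like FGFRL1, the ligands FGF19 and FGF2, the co-receptor KLB and the binding protein FGFBP1. All 9 were found among the 24222 entries of the count table. Each line was grown untreated in the same serum-containing medium and gave 1 library of stranded, poly(A)-selected RNA. The replicate is therefore a different cell line, every spread is a spread between lines, and no line was measured again.

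The labels place 7 lines in the gallbladder, of which 3 came from primary tumours, 3 from ascites and 1, Mz-ChA-2, from a liver metastasis. Extrahepatic bile duct lines number 5 (4 primary, 1 from ascites), intrahepatic lines 4 (3 primary, 1 from ascites) and Ampullary lines 3, all primary. OZ, from ascites, is labelled Extra/Intrahepatic and entered no comparison of sites. Genotypes are not part of the labels.

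FGF receptors are membrane tyrosine kinases that pass signals through the adaptor FRS2 to the RAS and MAP kinase cascade, which in turn induces its own inhibitors of the Sprouty and DUSP families. Most FGF ligands act locally and bind heparan sulphate. FGF19 is a hormone-like ligand that the gut releases in response to bile acids; it needs KLB (beta-Klotho) to bind FGFR4 on hepatocytes, where it represses bile acid synthesis. FGFR2 fusions are a known lesion of intrahepatic bile duct cancer and a drug target there.

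Total counts ranged over 10.47 to 15.41 M (mega) per line (median 12.49 M), so that a count of 0 allowed up to 3 counts, or 0.195 to 0.287 counts per M (CPM). KRT8, KRT18, KRT19 and SOX9, markers of biliary and other epithelium, were at or above 1 CPM in every line. The summed level of the 7 epithelial markers was 335 CPM in HuH28, where KRT19 was 1.03 CPM, against 13500 CPM in SNU-245, and HuH28 had the highest sum of 6 mesenchymal markers (11300 CPM). The 3 endothelial markers summed to at most 21.1 CPM.

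FGFR3 had the widest range of the 4 receptor kinases. Its level ran from 0.768 CPM in HuCCT1 over a median of 26.1 to 1387 CPM in Mz-ChA-2 (exact Poisson 95% interval 1367 to 1407), which was 4.06 times the next line, EGI-1 (341.5 CPM). In extrahepatic lines FGFR3 was 341.5 CPM in EGI-1, 110.5 in TFK-1, 85.99 in SNU-245, 29.48 in SNU-1196 and 11.93 in Sk-ChA-1. Intrahepatic lines divided into TKKK (241.8 CPM) and SNU-1079 (77.63 CPM) on the one hand and HuH28 (2.14 CPM) and HuCCT1 on the other. Ampullary lines held 51.97 CPM (SNU-478), 19.06 (SNU-869) and 3.79 (TGBC18TKB). Gallbladder lines had the lowest median, 6.17 CPM, together with the highest single value, and every site overlapped with every other.

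FGFR4, the receptor of FGF19, was also highest in Mz-ChA-2, at 534.6 CPM (95% interval 522.0 to 547.3), followed by SNU-1079 (209.3), SNU-869 (200.6) and OZ (154.1 CPM). The median was 17.9 CPM and the lowest value 0.746 CPM, in Sk-ChA-1. Gallbladder lines ran from 2.83 CPM (NOZ) over a median of 8.91 to the maximum in Mz-ChA-2, with TGBC2TKB at 117.0 CPM. Extrahepatic lines were at 103.6 CPM (SNU-245), 56.29 (SNU-1196), 39.37 (TFK-1), 4.86 (EGI-1) and 0.746 (Sk-ChA-1). High and low lines thus stood side by side within each site. When lines were put in order of FGFR4, the 95% intervals of neighbours overlapped in 9 of 19 adjacent pairs, so that only part of this order is resolved by the counts.

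FGFR1, the receptor most often linked to mesenchymal cells, was detected in all lines, from 1.37 CPM in SNU-308 over a median of 22.7 to 453.5 CPM in SNU-1079 (95% interval 441.6 to 465.6), an intrahepatic line. TGBC2TKB followed with 190.5 CPM. In intrahepatic lines the values were 453.5, 70.30 (HuCCT1), 52.06 (HuH28) and 3.06 CPM (TKKK). Extrahepatic lines lay between 1.52 CPM (SNU-1196) and 50.73 CPM (SNU-245). The 3 higher intrahepatic lines exceeded every extrahepatic line, while TKKK lay within their range. HuH28 and SNU-245, the nearest pair across that boundary, are within counting error of each other.

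FGFR2 was spread unlike the other receptors, being undetected in some lines. Its 4 highest lines were HuH28 (85.97 CPM, 95% interval 80.73 to 91.46), SNU-245 (69.63), Mz-ChA-2 (43.17) and SNU-1196 (36.46 CPM), and the median was 15.2 CPM. No read was counted in G415, OCUG-1 or Sk-ChA-1, where 3 counts correspond to 0.210, 0.229 and 0.222 CPM. NOZ (0.236 CPM) and TGBC2TKB (0.822 CPM) were also under 1 CPM. Of these 5 lines 4 are gallbladder lines, and the other 3 gallbladder lines held 17.51 to 43.17 CPM. Intrahepatic lines ranged from 7.12 CPM (TKKK) through 7.97 (SNU-1079) and 23.12 (HuCCT1) to HuH28, and extrahepatic lines from 0 to 69.63 CPM. The highest line, HuH28, had 0.171 CPM of ESRP1, an epithelial splicing regulator that favours the epithelial isoform of FGFR2, against a median of 153.3 CPM over the lines. Counts per gene do not separate FGFR2 isoforms or fusion transcripts.

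**Figure D1:**
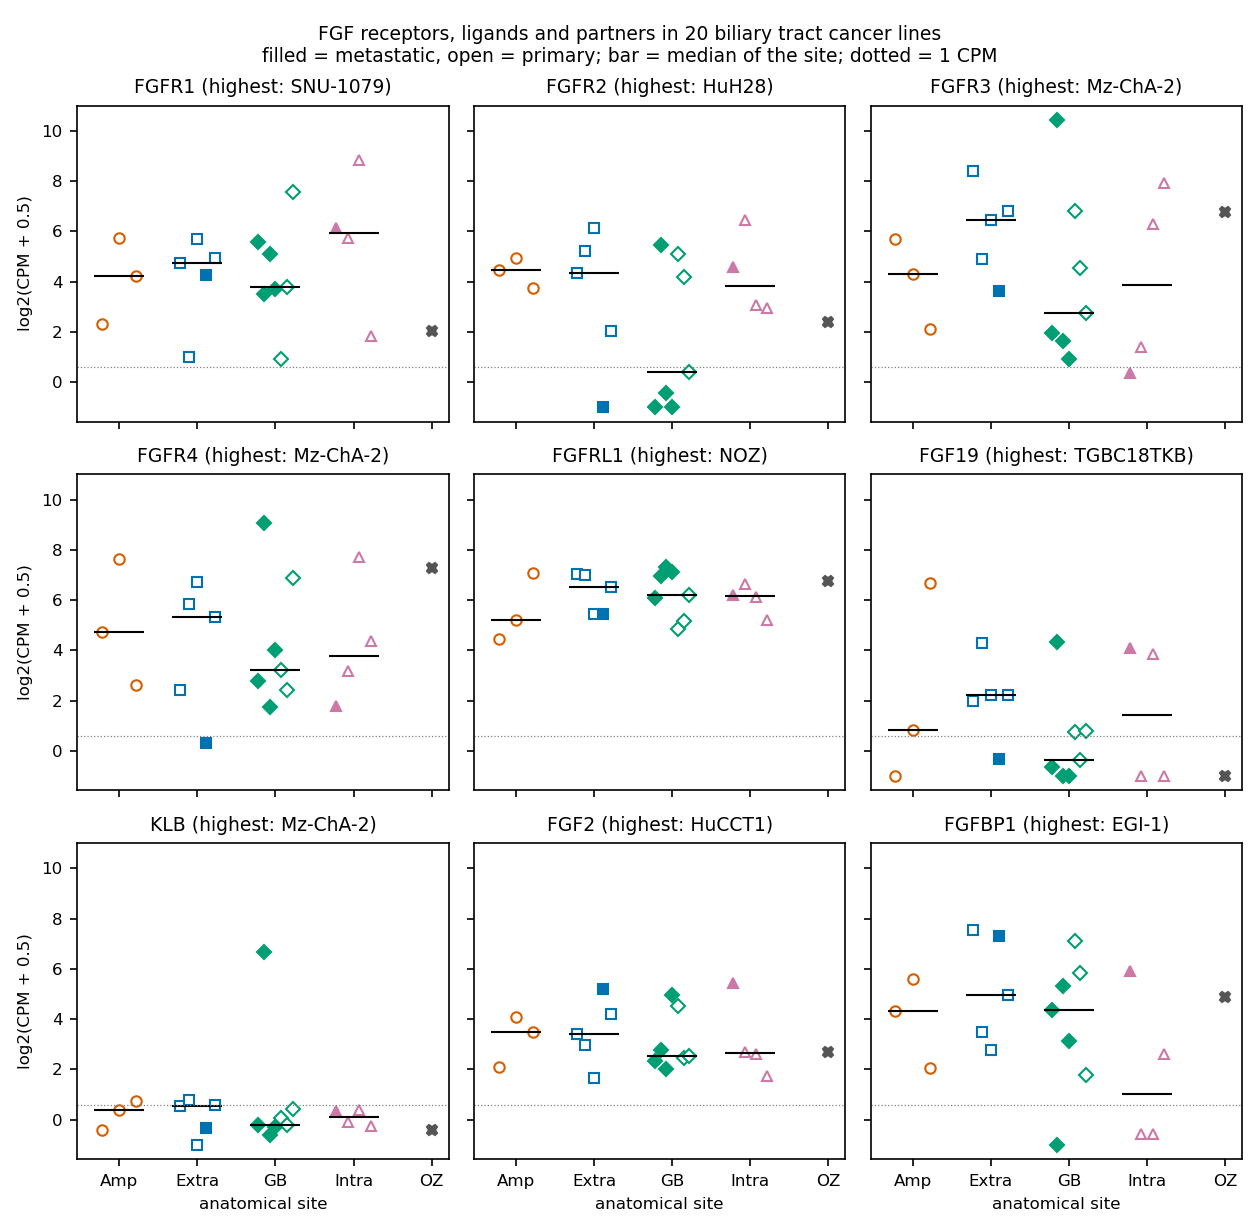
Levels of the 9 genes in each line as log2(CPM + 0.5) on the vertical axis, by anatomical site on the horizontal axis (Amp, Extra, GB, Intra for Ampullary, Extrahepatic, Gallbladder, Intrahepatic; OZ apart). Each point is 1 line, filled for metastatic and open for primary origin, and bars are site medians. KLB lies at or near the dotted 1 CPM line in 19 lines and at 102.5 CPM in Mz-ChA-2, while FGFRL1 keeps within a narrow band.

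To compare receptors with each other, CPM were divided by the length of all annotated exons of the gene. On this per-kilobase scale FGFR3 was the leading receptor kinase in 8 lines, FGFR4 in 6, FGFR1 in 5 and FGFR2 in 1, HuH28, where it made up 55.6% of the sum. The summed level of the 4 receptors ranged from 5.54 CPM per kb in Sk-ChA-1 to 464 in Mz-ChA-2, with a median of 30.0 CPM per kb. In 5 lines a single receptor held over 75% of the sum. FGFR3 did so in EGI-1 (90.6%), TKKK (88.7%) and SNU-308 (76.6%), FGFR1 in NOZ (77.2%) and FGFR4 in SNU-869 (77.2%). SNU-1079 and Mz-ChA-2 differed in make-up despite both having high sums: FGFR1 led with 45.9% in the former and FGFR3 with 67.1% in the latter. Dividing by the length of the listed transcript instead changed the leader in Sk-ChA-1, TGBC14TKB and TGBC2TKB. FGFR1 then led 7 lines, FGFR3 6, FGFR4 5 and FGFR2 2, so the most frequent leader depended on the length used. By that length SNU-308 (64.5%) and SNU-869 (70.5%) fell under 75%, and FGFR1 in G415 rose above it (79.8%).

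**Figure D2:**
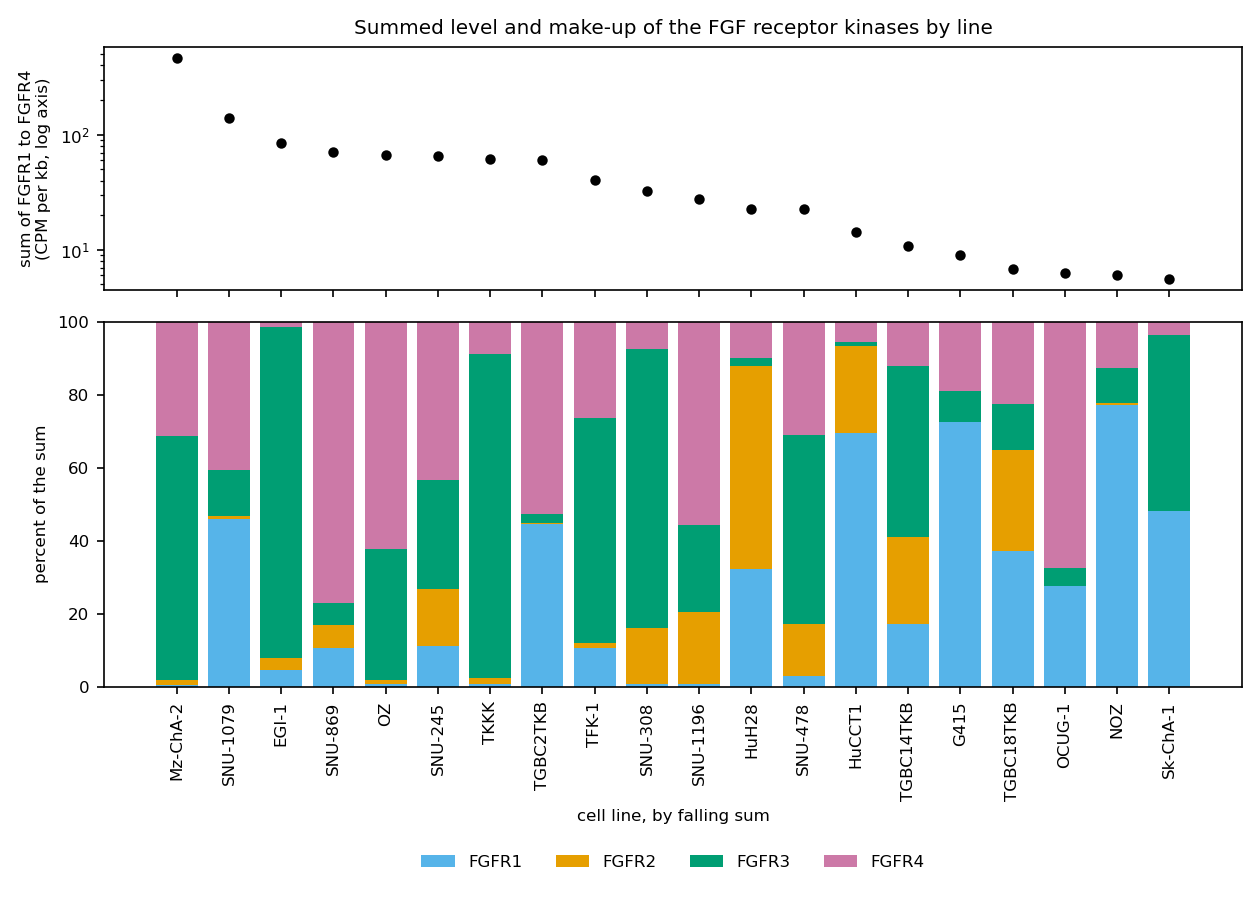
Upper axis: sum of FGFR1 to FGFR4 in CPM per kb (log axis), 1 point per line. Lower axis: percent of that sum from each receptor, lines in falling order of the sum. FGFR3 fills most of the bar in EGI-1 and TKKK, FGFR1 in NOZ, G415 and HuCCT1, and FGFR4 in SNU-869.

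FGFRL1 binds FGF ligands but lacks the kinase domain and can act as a decoy. It was the steadiest of the 9 genes, with 21.63 CPM in SNU-478, a median of 72.3 and 157.4 CPM in NOZ (95% interval 150.6 to 164.5). The SD of its log2 level over lines was 0.868, larger than that of 52.4% of the 15690 genes with a mean of at least 1 CPM. For FGFR3 the SD was 2.81, larger than that of 97.1% of these genes. All 4 lines supplied by the HSRRB repository had over 100 CPM of FGFRL1 (100.7 to 157.4 CPM), whereas the 6 KCLB lines held 21.63 to 129.3 CPM. The part of the repository in these levels was not tested.

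FGF19 was detected in 14 lines and reached 1 CPM in 11. TGBC18TKB, an Ampullary line, held 103.5 CPM (95% interval 97.60 to 109.7), which was 5.22 times the next line, Mz-ChA-2 (19.83 CPM). SNU-1196 (19.30), HuCCT1 (16.64) and SNU-1079 (13.80 CPM) followed, and the median was 1.20 CPM. The other Ampullary lines held 1.27 CPM (SNU-869) and 0 (SNU-478), so a single line carried the Ampullary mean of 34.9 ± 59.4 CPM (SD, n = 3). No read was counted in HuH28, NOZ, OCUG-1, OZ, SNU-478 or TKKK, which include all 4 HSRRB lines.

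KLB was close to the detection limit in all but 1 line. It was 102.5 CPM in Mz-ChA-2 (1318 counts, 95% interval 97.05 to 108.2) and 84.4 times lower in the next line, SNU-1196 (1.22 CPM, 0.695 to 1.97). TGBC18TKB followed at 1.17 CPM and the remaining lines lay between 0 and 0.991 CPM. Over all lines the median was 0.488 CPM. FGF19, FGFR4 and KLB were all at or above 1 CPM in 3 lines, Mz-ChA-2, SNU-1196 and TGBC18TKB, and all at or above 10 CPM in Mz-ChA-2 only. FGF19 and FGFR4 without regard to KLB were at or above 10 CPM in Mz-ChA-2, SNU-1079 and SNU-1196.

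An extreme line for a gene was one whose log2(CPM + 0.5) differed by 2.5 or more from the median line and by over 3 scaled median absolute deviations. KLB in Mz-ChA-2 was the only such case among the 9 genes, and no member was extremely low. Of all 14843 genes tested, 8.14% had at least 1 extreme high line and 8.39% at least 1 extreme low line, so 1 gene in 9 is near the background. With a pseudocount of 1 in place of 0.5, FGF19 in TGBC18TKB passed as well.

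FGFR3, FGFR4 and KLB were highest in the same line, and the 250 bases upstream of a RefSeq start of each are shown because these stretches differ in composition. They were read from the RefSeq promoter table (GRCh38.p14), all on the plus strand, at chr4:1793043-1793292 for FGFR3, chr5:177086665-177086914 for FGFR4 and chr4:39406680-39406929 for KLB. Capitals mark the GC box GGGCGG or its reverse complement CCGCCC and the E-box CAGGTG, bound by ZEB and Snail factors, or CACCTG; both strands were searched.
FGFR3: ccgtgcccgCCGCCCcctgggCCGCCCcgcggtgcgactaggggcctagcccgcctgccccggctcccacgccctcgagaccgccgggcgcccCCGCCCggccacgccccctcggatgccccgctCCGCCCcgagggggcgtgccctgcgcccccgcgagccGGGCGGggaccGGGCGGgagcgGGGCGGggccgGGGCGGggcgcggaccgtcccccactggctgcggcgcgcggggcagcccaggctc
FGFR4: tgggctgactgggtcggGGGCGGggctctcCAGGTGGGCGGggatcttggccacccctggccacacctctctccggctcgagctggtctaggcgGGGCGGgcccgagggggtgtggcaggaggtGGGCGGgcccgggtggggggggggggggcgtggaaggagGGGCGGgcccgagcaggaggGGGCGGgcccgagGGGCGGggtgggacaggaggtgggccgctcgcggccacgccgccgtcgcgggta
KLB: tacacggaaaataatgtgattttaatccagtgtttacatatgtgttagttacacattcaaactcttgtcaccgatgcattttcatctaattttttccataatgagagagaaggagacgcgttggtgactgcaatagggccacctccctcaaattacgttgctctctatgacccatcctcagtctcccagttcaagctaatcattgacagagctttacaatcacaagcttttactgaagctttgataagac
The FGFR3 stretch holds 40 CG dinucleotides, more than 97.8% of 35116 promoters of this length (median 11), and 8 GC boxes. The FGFR4 stretch holds 24 CG and 7 GC boxes, one of which overlaps its single E-box. A further FGFR4 start has 2 CG and neither motif upstream of it. The KLB stretch has 5 CG, and neither these 2 motifs nor TATAAA or GTTAAT (an HNF1 half-site) occur in it. Among all promoters, GGGCGG occurs in 42.6%, CAGGTG in 17.5%, TATAAA in 10.7% and GTTAAT in 6.23%. Of the 9 genes, 7 had an entry in the table.

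FGF2, a broadly expressed ligand that lacks a classical secretion signal, was detected in every line within a modest range. Its level was 2.64 CPM in SNU-245, 6.18 at the median and 43.17 CPM in HuCCT1 (95% interval 39.49 to 47.10). Sk-ChA-1 (36.77), OCUG-1 (30.69), SNU-308 (22.26), TFK-1 (17.70) and SNU-869 (16.29 CPM) came next, from 4 different sites in all. FGF2 overlaps NUDT6 on the opposite strand, and since the strand setting of the counting is not given in the sources used here, reads of the pair may be mixed. NUDT6 itself held 2.84 to 15.51 CPM and was 8.11 CPM in HuCCT1.

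FGFBP1 is a secreted carrier that releases FGF2 from heparan sulphate. It ranged from 0 in Mz-ChA-2 to 187.4 CPM in EGI-1 (95% interval 179.9 to 195.1), with a median of 19.8 CPM. Sk-ChA-1 (158.2) and SNU-308 (138.5 CPM) were close behind. HuH28 (0.171 CPM) and SNU-1079 (0.164 CPM) were nearly without it, so that 2 of 4 intrahepatic lines lacked FGFBP1 at 1 CPM, while all 5 extrahepatic lines held 6.37 CPM or more. The line without FGFBP1 reads, Mz-ChA-2, was the highest in FGFR3, FGFR4 and KLB.

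None of the 9 genes passed an adjusted p of 0.05 in any of 7 comparisons of site or origin (edgeR quasi-likelihood F test, Benjamini-Hochberg over all genes). The share of all genes called was itself 0.00602% for the joint test of 4 sites and for Ampullary against the mean of the other 3 sites (1 of 16615 genes each). It was 0.0% for extrahepatic, gallbladder and intrahepatic lines against the others, for intrahepatic against extrahepatic, and for metastatic against primary. At an unadjusted p under 0.05 stood 1 of the 9 genes in each of the joint, gallbladder, intrahepatic and origin comparisons and 0 in the remaining 3, against 873 to 2051 of all genes. The share of all genes under it was 10.7% jointly, 12.3% for gallbladder, 9.47% for intrahepatic lines and 7.73% for origin. In the remaining 3 comparisons it was 5.25% to 9.40%, so 1 gene in 9 is near the background. DESeq2 and limma-voom also called 0 of the 9 genes. DESeq2 called 133 to 382 of all genes and limma-voom 0 to 8.

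KLB had the smallest p of the 9 genes in both gallbladder and metastatic lines, and both values rest on Mz-ChA-2. Gallbladder lines held 0.157 to 102.5 CPM with a median of 0.362, and all other sites 0 to 1.22 CPM. The fitted log2 difference was 4.46 (SE 1.26, edgeR adjusted p = 0.222). Metastatic lines had a median of 0.311 CPM and primary lines one of 0.791 CPM, although the fitted log2 difference was 4.48 (SE 1.10, edgeR adjusted p = 0.273). Without Mz-ChA-2 the differences were −0.64 and −0.89.

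FGFR1 had its highest site median in the intrahepatic lines, 61.2 CPM, against 26.5 in extrahepatic, 17.9 in Ampullary and 13.2 in gallbladder lines. The log2 difference from the mean of the other sites was 2.29 (SE 0.96, unadjusted p = 0.0287, edgeR adjusted p = 0.450) and did not pass. Against extrahepatic lines alone it was 2.53 (SE 1.28, edgeR adjusted p = 0.565). Without SNU-1079 the 2 differences were 0.47 and 0.71. For FGFR2, the receptor whose lesions mark intrahepatic cancer, the intrahepatic median was 15.5 and the extrahepatic 19.7 CPM, with a log2 difference of 0.28 (SE 1.68, edgeR adjusted p = 0.977). FGF19 in Ampullary lines differed by 2.70 (SE 1.64, edgeR adjusted p = 0.923), a value set by TGBC18TKB. The largest difference of FGF2 was 1.06 in metastatic lines (SE 0.53, edgeR adjusted p = 0.651), where the medians were 6.38 and 5.91 CPM.

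The remaining differences had standard errors of 0.36 to 2.05 on the log2 scale, so that changes of several fold could have gone undetected. On simulated counts of these group sizes, 37% to 76% of genes shifted by a log2 of 3 were recovered and 0% to 14% of those shifted by 1. The shifted genes were drawn at random from those with a mean of at least 1 CPM. FGFR1 to FGFR4, FGF19 and FGFBP1 varied more over lines than 88.8% to 97.1% of genes at that level. Recovery was not measured for them apart. The median log2 difference over the 9 genes was −0.40 for Ampullary, 0.24 for extrahepatic, 0.27 for gallbladder and −0.12 for intrahepatic lines, and 0.50 for metastatic origin. Over all genes it was −0.11, −0.02, 0.11, 0.04 and −0.02. The sign for the 9 genes depended on the tool in 3 of these comparisons: it was −0.24 (DESeq2) and −0.22 (limma-voom) for gallbladder lines, −0.82 (DESeq2) against 0.03 (limma-voom) for metastatic origin, and 0.04 (limma-voom) for Ampullary lines. FGFR3 was among the genes that turned, from 1.83 in gallbladder lines by edgeR to −1.21 by DESeq2 and −0.56 by limma-voom. In metastatic lines it turned from 1.36 to −1.80 by both, with a DESeq2 adjusted p of 0.424.

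**Figure D3:**
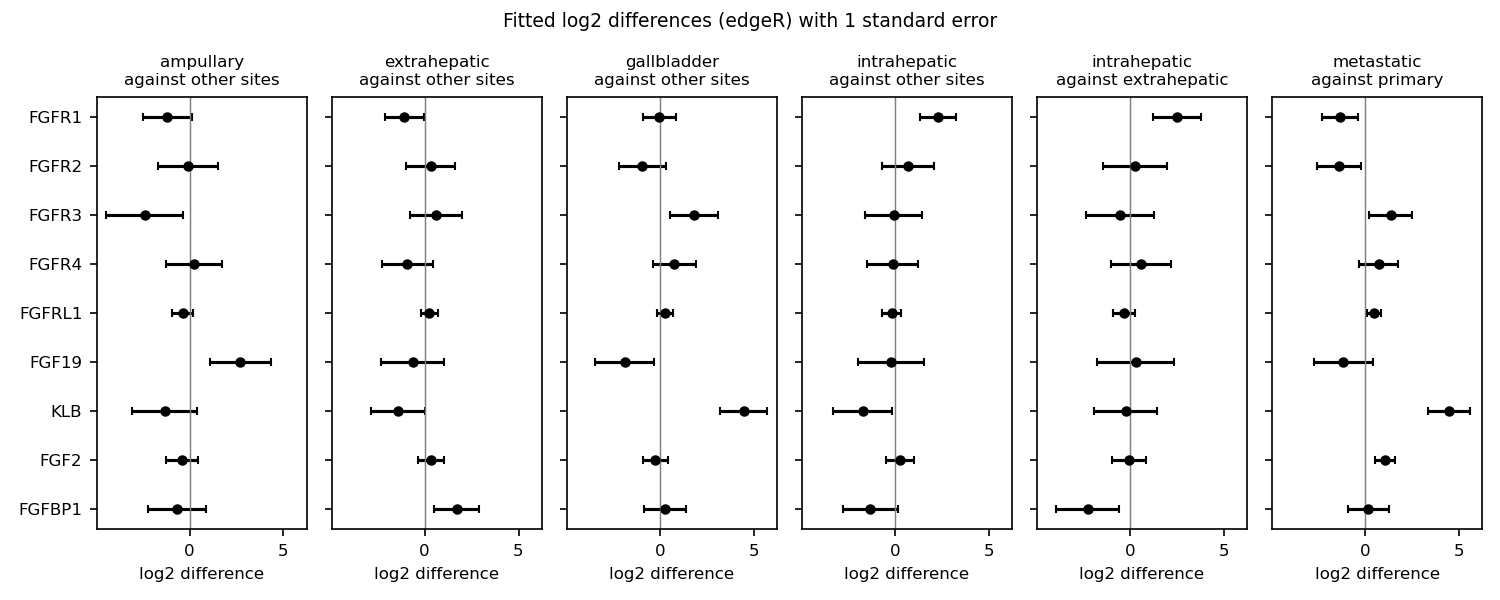
Fitted log2 differences (horizontal axis, edgeR) of the 9 genes, with bars of 1 standard error, in 4 comparisons of a site with the mean of the others, in intrahepatic against extrahepatic lines, and in metastatic against primary lines. KLB in gallbladder lines (4.46) and in metastatic lines (4.48) lies farthest from 0, and no gene passed the adjusted threshold. With DESeq2 KLB and FGFR3 had the opposite sign in these 2 comparisons.

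FGF19 and KLB had the closest relation by rank of any 2 of the genes across the 20 lines. Spearman's rho was 0.73 (permutation p = 0.00043, adjusted p = 0.0232 over 54 relations), but Pearson's r was 0.50 (permutation p = 0.0316, adjusted p = 0.284), and a relation was called only where both passed. Without Mz-ChA-2 and TGBC18TKB r was 0.63 and rho 0.64. Within the 6 KCLB lines r was 0.47 and rho 0.66, and within the 6 RIKEN lines 0.90 and 0.89. In 17 lines KLB was under 1 CPM, and the intervals overlapped in all 16 adjacent pairs of these lines.

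FGFBP1 ran against FGFR4 without passing the adjusted tests. Pearson's r was −0.55 (permutation p = 0.0125, adjusted p = 0.283), rho was −0.59 (permutation p = 0.00747, adjusted p = 0.202), and r was −0.36 without Mz-ChA-2 and Sk-ChA-1. Within KCLB lines r was −0.65 and rho −0.66, and within RIKEN lines −0.72 and −0.83. FGFR3 and FGFR4 had an r of 0.52 (permutation p = 0.0202, adjusted p = 0.283) and a rho of 0.45 (permutation p = 0.0484, adjusted p = 0.523). For that pair r was 0.32 without HuCCT1 and Mz-ChA-2 and was −0.44 within KCLB and 0.32 within RIKEN. None of the 36 pairs of the 9 genes, nor any relation with the score of epithelial minus mesenchymal genes or with the score of FGF feedback genes, passed both adjusted tests. Permutation p of both coefficients were under 0.05 for 3 of the 36 pairs, those of the present and the preceding paragraph.

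**Figure D4:**
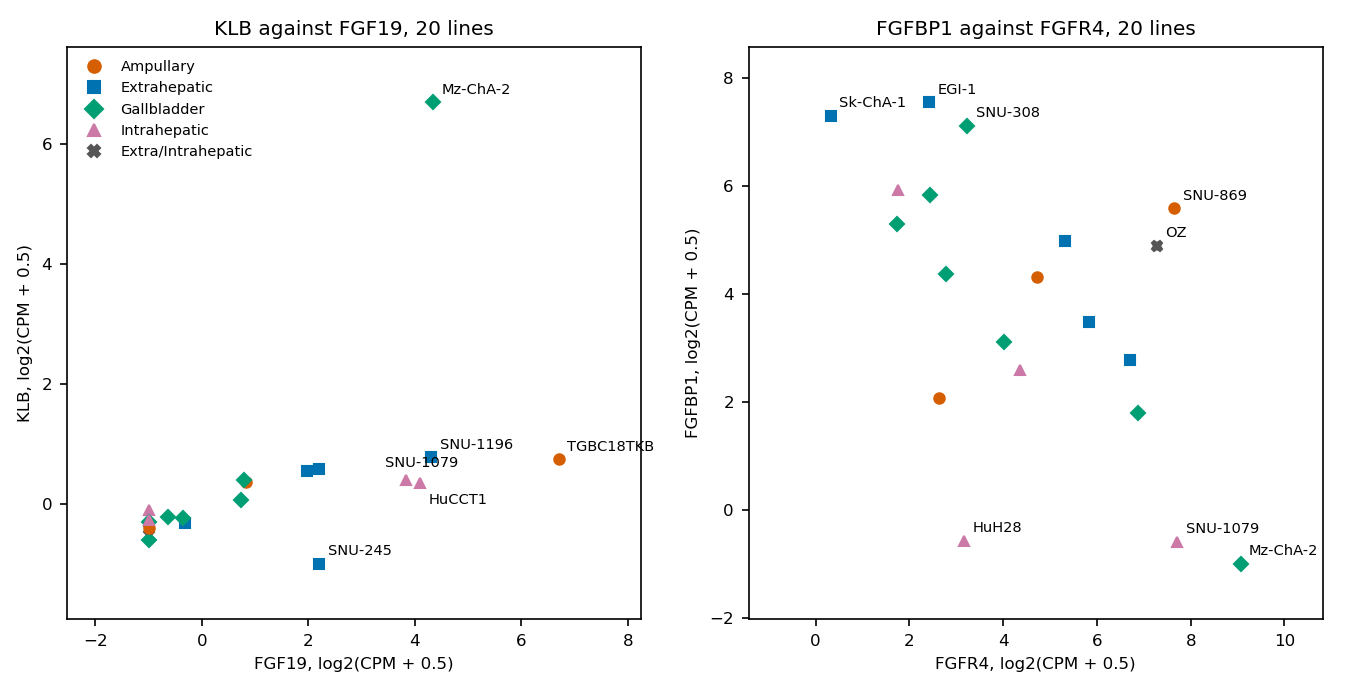
KLB against FGF19 (left) and FGFBP1 against FGFR4 (right), all as log2(CPM + 0.5), 1 point per line, with symbols for the site. On the left Mz-ChA-2 stands apart with 102.5 CPM of KLB and the other lines follow a shallow slope; on the right Mz-ChA-2 (0 CPM of FGFBP1) and Sk-ChA-1 (158.2 CPM) form opposite corners.

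The genes whose ranks over the 20 lines were most like each member, among 15690 genes, were named by Spearman's rho. For FGFR3 they were GRTP1 (0.84), MPIG6B (0.83) and DQX1 (0.81), and for FGFR4 NPC1L1 (0.83), KIF12 (0.83) and SLC29A4 (0.81). FGFR1 was closest to CALHM5, ALPK2 and the integrin ITGB3 (all 0.74), which were each highest in HuH28. FGFR2 was closest to GGH (0.77), SHROOM2 (0.76) and AUTS2 (0.76), and FGFRL1 to ACO1 (0.75), DHPS (0.74) and MRPS30-DT (0.73). For FGFBP1 they were the basal keratin KRT15 (0.82), OASL (0.77) and AMOTL1 (0.77), and for FGF2 DGKG (0.80), CISD2 (0.78) and PEX14 (0.75). FGF19 had MAP3K9 (0.77), CFAP263 (0.74) and KLB (0.73), and KLB had BAIAP2-DT (0.74), INTS2 (0.74) and FGF19 (0.73). All these genes were picked as the highest of 15690 values of rho over 20 lines. No test took account of that choice. The order of lines by KLB rests on fewer than 20 counts in 19 lines, and BAIAP2-DT had a Pearson r of 0.38 with it.

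Among the other FGF ligands of a list of 16, of which FGF16 was not measured, most were near 0 at the median and high in few lines. FGF5 was 182.0 CPM in SNU-1079, the line highest in FGFR1, then 27.31 in HuH28 and 17.48 CPM in OCUG-1, with a median of 0.0782 CPM. FGF1 peaked at 47.24 CPM in G415 and FGF9 at 37.71 CPM in OZ. FGF4 was 43.79 CPM in Mz-ChA-2 and at most 0.0822 CPM in every other line. FGF7, the ligand of the epithelial FGFR2 isoform, stayed at or under 1.71 CPM (HuH28), FGF10 had no read in any line, and FGF21, which also signals through KLB, reached 5.53 CPM in TGBC14TKB. Of the 16 ligands only 5 were tested over sites and 2, FGF17 and FGF18, by origin, and none of these passed. FGF5 and FGF1 had the smallest p over sites jointly (edgeR adjusted p = 0.232 and 0.416).

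Co-receptors and binding partners were as uneven. FLRT2, a membrane protein that binds FGF receptors, was 545.1 CPM in SNU-1079, 267.8 in HuH28 and 39.08 CPM in HuCCT1, all intrahepatic, against a median of 0.210 CPM, and 0.0828 CPM in the fourth intrahepatic line, TKKK. It was also high in the gallbladder lines TGBC2TKB (36.75 CPM), OCUG-1 (33.26), G415 (24.20) and SNU-308 (16.71 CPM). Its joint test over sites gave an edgeR adjusted p of 0.166. GPC3, a heparan sulphate proteoglycan known from hepatocellular carcinoma, was 1789 CPM in Mz-ChA-2 and 11.71 CPM in the next line, SNU-308 (edgeR adjusted p = 0.227 over sites jointly). KL, the relative of KLB that serves FGF23, reached 19.19 CPM in TGBC14TKB. Of 12 genes of this list, 11 were tested over sites and 0 passed.

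On the bile acid side of the FGF19 axis, CYP7A1, the rate-limiting enzyme of bile acid synthesis, did not exceed 0.166 CPM in any line. NR1H4, the bile acid receptor that induces FGF19, was at or above 1 CPM in 5 lines and highest in Mz-ChA-2 (26.52 CPM), with a median of 0. Its target NR0B2 was highest in SNU-245 (26.74 CPM), where NR1H4 had no read, and next in Mz-ChA-2 (22.24 CPM). NR1H4 also had no read in TGBC18TKB, the line highest in FGF19. The summed hepatocyte markers ALB, APOA1, TTR, SERPINA1, CYP3A4 and HNF4A were also highest in Mz-ChA-2 (5320 CPM), against a median of 76.3 and a lowest value of 2.49 CPM. ALB, for albumin, was 9.41 CPM in Mz-ChA-2, and HNF4A was 94.81 CPM there and 407.1 CPM in SNU-245. The part of these genes in the levels of KLB and FGFR4 was not tested.

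Mz-ChA-2 was the highest line for 8.46% of the 15690 genes with a mean of at least 1 CPM, the largest share of any line, against which the counts below are to be read. Of 10 receptor adaptors and effectors 2 were highest in Mz-ChA-2. FRS2, the main adaptor of FGF receptors, was 186.3 CPM there against a median of 30.95, and PLCG1, a direct substrate, 755.7 against 136.3 CPM. FRS3, of the same list, was lowest of all lines there (2.80 CPM, median 6.27). Of 13 feedback and output genes 5 were highest in Mz-ChA-2, among them SPRY2 (195.9 CPM, median 21.9) and DUSP5 (571.5 CPM, median 32.59), whereas DUSP4, a phosphatase of MAP kinases like DUSP5, was 2.64 CPM against a median of 84.04. The other 3, named after their values were seen, were SPRED2 (136.5 CPM, median 55.93) and the transcription factors ETV4 (201.8, median 63.72) and ETV5 (159.4, median 32.79). IL17RD, a further gene of the 13, was lowest of all lines in Mz-ChA-2 (0.0778 CPM, 1 count). Another 4 of the 13 genes were highest in NOZ, the highest line for 7.10% of all these genes. DUSP6 was 726.8 CPM in NOZ, and the 4 receptors summed to 6.07 CPM per kb there. In SNU-1079, the line highest in FGFR1, the list was mixed. SPRY2 (9.86 CPM) and DUSP4 (6.98 CPM) were below their medians there and ETV5 (60.96 CPM) was above its median. Of the 13 genes, 1 was highest in SNU-1079.

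SPRY4, a Sprouty inhibitor, was 415.5 CPM in OZ, 244.7 in G415, 242.7 in Mz-ChA-2 and 240.1 CPM in NOZ, which are all metastatic lines. The other metastatic lines held 83.02 (HuCCT1), 55.64 (Sk-ChA-1) and 38.77 CPM (OCUG-1), within the primary range of 3.64 (TGBC14TKB) to 165.3 CPM (SNU-245). Metastatic against primary lines differed by a log2 of 2.41 (unadjusted p = 0.00142, edgeR adjusted p = 0.371) and SPRY2 by 1.66 (edgeR adjusted p = 0.454). Neither passed. The median log2 difference of the 13 feedback genes was 0.81 in metastatic lines, against −0.02 over all genes, with 3 of 13 at an unadjusted p under 0.05, a threshold that 7.73% of all genes met.

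Of the pathway lists, no gene that was tested passed in any of the 7 comparisons (edgeR). Among 10 receptor adaptors and effectors the smallest p belonged to PLCG1 (1.07 in metastatic lines, edgeR adjusted p = 0.509) and SOS1 (−0.59, edgeR adjusted p = 0.595). FRS3, a relative of FRS2, was 87.82 CPM in SNU-1196 against a median of 6.27, and the docking protein GAB1 was 2.20 CPM in NOZ against 20.44. Of the 4 splicing regulators, ESRP2 differed by −1.33 in metastatic lines (edgeR adjusted p = 0.538) and PTBP1 by 0.30 (edgeR adjusted p = 0.698). ESRP1 was extremely low in 7 lines, 0 CPM in G415 and SNU-1079 among them. Of the intracellular homologues, which do not bind the receptors in the way that secreted ligands do, FGF12 was 24.25 CPM in TKKK and 18.15 CPM in SNU-308 with a median of 0.0423. It had no read in 6 of 7 metastatic lines and 2 counts in Mz-ChA-2 (edgeR adjusted p = 0.277). Primary lines were divided: 7 of 13 held 1.73 to 24.25 CPM and 6 held 0 to 2 counts. FGF13 differed by 2.29 in metastatic lines (edgeR adjusted p = 0.664). The bile acid exporter subunits SLC51A and SLC51B had joint adjusted p of 0.598 and 0.631 (edgeR). Of the genes around FGF19, FADD differed by 0.51 and CCND1 by 0.66 in metastatic lines (edgeR adjusted p = 0.554 and 0.778), and MYEOV was 0.0856 CPM in HuH28 against a median of 68.41.

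**Figure D5:**
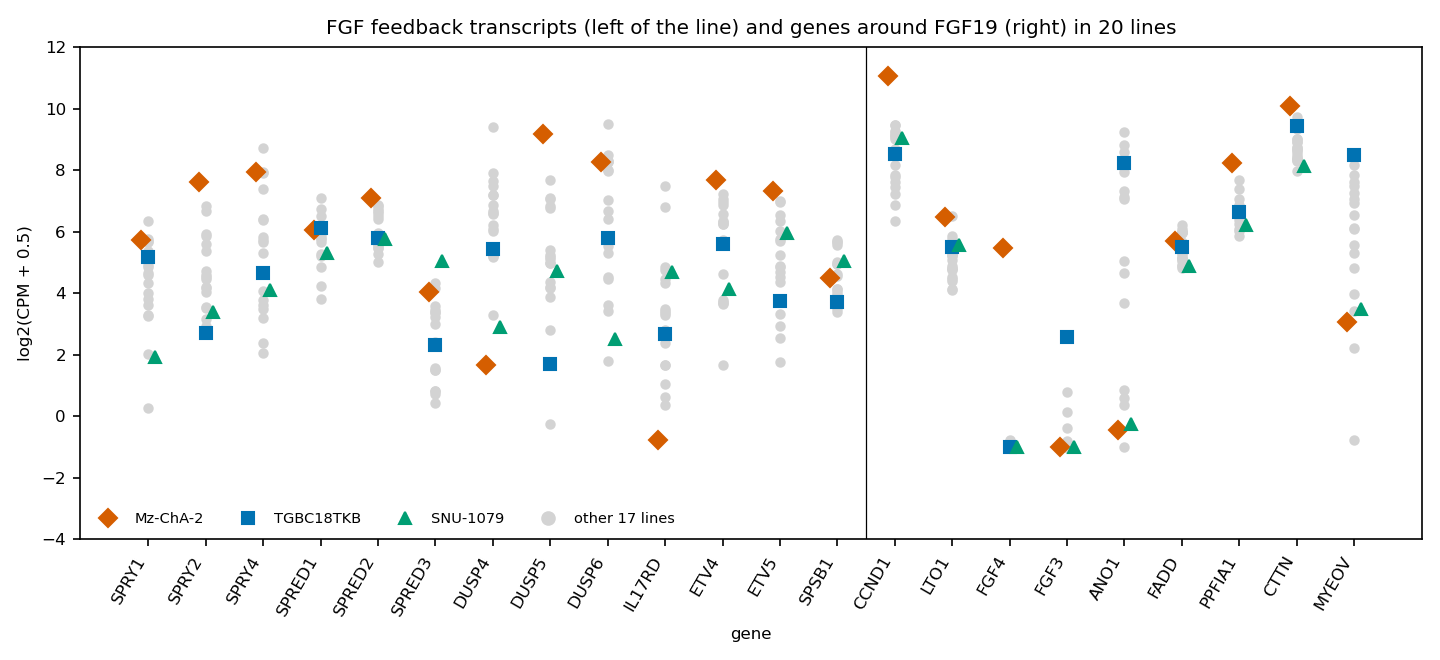
Levels as log2(CPM + 0.5) of all 13 feedback and output genes (left of the vertical line) and of 9 genes around FGF19 (right), 1 grey point per line and coloured symbols for the lines highest in KLB (Mz-ChA-2), FGF19 (TGBC18TKB) and FGFR1 (SNU-1079). Mz-ChA-2 is highest in DUSP5 (571.5 CPM) and CCND1 (2120 CPM) and lowest in DUSP4 (2.64 CPM) and IL17RD (0.0778 CPM).

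The genes next to each member were read in the line where that member was highest, and those named here are a selection made after their values were seen. Of neighbours that reached 1 CPM in some line, those among the 5 highest values of their gene in that line numbered 4 of 6 beside FGF19, 4 of 6 beside FGFR4, 3 of 6 beside KLB, 3 of 5 beside FGFR3 and 4 of 4 beside FGFBP1. They numbered 1 of 4 beside FGFR2, 1 of 5 beside FGFRL1 and 0 beside FGFR1 (6) and FGF2 (5). The 4 beside FGF19 include FGF4, placed by a tie at 0 CPM, and LINC01488 at 0.0902 CPM. The share of all genes among the 5 highest values in a line was not computed, so these counts lack a background. Mz-ChA-2, the line read for FGFR3, FGFR4 and KLB, was the highest line for 8.46% of 15690 genes. That share concerns the first rank only and is no background for counts among the 5 highest. At first rank in Mz-ChA-2 stood 2 of 6 neighbours of KLB, 2 of 6 of FGFR4 and 0 of 5 of FGFR3. Beside FGF19 in TGBC18TKB, FGF3 was 5.50 CPM, the highest of all lines, and ANO1 302.8 CPM, the fifth highest. CCND1, the cyclin gene often amplified together with FGF19, was 366.8 CPM there, below its median of 462.6, and FGF4 had no read. In Mz-ChA-2, second in FGF19, CCND1 was 2120 CPM and FGF4 43.79 CPM, both the highest of all lines, while FGF3 had no read. ANO1 was 0.233 CPM in Mz-ChA-2 against a median of 136.3. Beside FGFR1 in SNU-1079, TACC1 was 67.94 CPM against a median of 78.94. Beside KLB in Mz-ChA-2, KLHL5 was highest of all lines (328.3 CPM, median 101.1), WDR19 was the third highest (50.40 CPM, median 23.22) and RFC1 was 92.71 CPM against a median of 82.36. Beside FGFR4 in the same line UIMC1 and RAB24 were highest (75.99 and 99.94 CPM) and NSD1 lowest of the 20 lines (14.86 CPM, median 84.02). TACC3, the usual fusion partner of FGFR3, was the third highest there with 251.0 CPM, and highest in EGI-1 (297.4 CPM). SLBP (118.1 CPM, median 87.44) and NSD2 (118.3 CPM, median 68.89), also beside FGFR3, were likewise the third highest. Copy number and fusions were not measured.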

How the data were processed

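Poly(A)-selected RNA of 20 cell lines was sequenced from a stranded kit, 1 library per line. The deposited table holds raw read counts per gene, whole numbers that the authors had not normalized. Per the submitters' processing notes, Trimmomatic, TopHat2 2.0.8, Picard 1.69 and featureCounts were used with hg19 (GRCh37); order, annotation and strand setting were not given in the sources used here. Of 24222 entries, 23512 were named from a RefSeq table (GRCh38.p14, used for names and gene order) and 355 from GENCODE metadata; 355 kept their identifier.

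From these counts CPM were computed with TMM scaling over all entries and log2 levels with a pseudocount of 0.5. Lengths per kilobase are unions of GENCODE v29 exons. Intervals are exact Poisson 95% intervals; they and the floor of 3 counts cover counting error only. Totals of 10.47 to 15.41 M counts per line set this precision. Sites (19 lines, 16615 genes) and origin (20 lines, 14843 genes) were each modelled in R 4.3.3 by the two-sided quasi-likelihood F test of edgeR 4.0.16, with robust dispersion, genes kept by filterByExpr, TMM scaling and a Benjamini-Hochberg adjusted p under 0.05. The fits were tested on simulated data. Common dispersion was 0.915 and 0.782. P-values measure the spread between lines. Correlations used 100000 two-sided permutations, adjusted over 54 relations (36 pairs, and 9 genes with each of 2 scores).

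Named were the 9 genes, from each pathway list the 2 genes of smallest p and up to 4 extreme genes, and the 3 genes of most similar rank; 3 neighbours on each side of each gene were ranked, and those named are a selection made after seeing them. Other genes named (FGF7, FGF9, FGF10, FGF21, KL, CYP7A1, NR1H4, NR0B2, ALB, DUSP6, ETV4, ETV5, SPRED2 and IL17RD) were chosen after their values were seen. The 9 genes and all lists were chosen with earlier results of these data known. Alternatives were RLE scaling, DESeq2 1.42.0, limma-voom (limma 3.58.1), other filters, covariates (site, origin, repository), fewer lines and each line left out. The result of 1 further marker list is not reported here.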

Additional observations from a re-analysis of the deposited data

Results flagged for a closer look

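Among the 36 groups of 4 to 10 lines that were checked, 3 had a line far from the others on the log2(CPM + 0.5) scale, and chance alone flags about 1 in 20 groups. All 3 involve Mz-ChA-2. Its KLB level of 102.5 CPM stood apart both among the 7 gallbladder lines, where the next was 0.822 CPM, and among the 7 metastatic lines, where the next was 0.768 CPM. Its FGF19 level of 19.83 CPM stood apart among the gallbladder lines, where the next was 1.23 CPM (TGBC2TKB).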

How the results depend on the processing

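No member was called in any of 202 alternatives of the 7 comparisons, and the smallest adjusted p over them was 0.165 (KLB by origin, no filter). Calls over all genes were few with edgeR, 0 or 1 in each comparison, and moved with single lines and tools. Over the edgeR alternatives they reached 11 for Ampullary (without SNU-869), 7 for intrahepatic (without HuCCT1), 4 for gallbladder lines (origin as covariate) and 2 jointly. Limma-voom gave 0 to 8 and DESeq2 133 for Ampullary, 182 for extrahepatic, 382 for gallbladder and 264 for intrahepatic lines, 298 for intrahepatic against extrahepatic, 303 jointly and 181 by origin. The difference of KLB in metastatic lines turned to −0.82 with DESeq2, which replaces outlying counts in groups of 7 or more lines, and to −0.89 without Mz-ChA-2 (range −0.89 to 4.70). The alternative with ascites lines only is the same fit, since Mz-ChA-2 is the only metastatic line not from ascites. It was counted again among the 202 alternatives. In gallbladder lines the KLB difference turned to −0.61 with DESeq2, −0.64 without Mz-ChA-2 and −0.23 in primary lines only (up to 4.70). The FGFR2 difference of intrahepatic from extrahepatic lines ran from −1.02 without HuH28 to 1.06 without SNU-245 when single lines were left out, and reached 2.43 with repository as covariate, with −0.05 without Sk-ChA-1 and −0.01 without TFK-1. FGF19 in Ampullary lines was −3.10 without TGBC18TKB (up to 3.62). FGFR3 turned with DESeq2 too, to −1.21 in gallbladder and −1.80 in metastatic lines, and with limma-voom to −0.56 and −1.80. The part of count replacement in the reversals with DESeq2 was not tested, nor was the cause of the other reversals. Within the KCLB lines r of FGFR3 and FGFR4 was −0.44, and rho of FGFR3 with the epithelial minus mesenchymal score was −0.09, against 0.54 over all lines and 0.69 without Mz-ChA-2. The rho of FGF19 and KLB lost its adjusted significance without the 2 lines farthest from the median (0.64) and without SNU-1196 or TGBC18TKB (0.69 each). Extreme cases numbered 2 with a pseudocount of 1 and 5 with 0.1, which adds low FGFR2 in G415, OCUG-1 and Sk-ChA-1 and low FGFBP1 in Mz-ChA-2. By listed transcript length, chosen after seeing the data, FGFR1 led 7 lines, FGFR3 6, FGFR4 5 and FGFR2 2. Of the 27 nearest genes, 12 were shared with a ranking by Pearson r. KLB gave no value where the filter removed it. No paired analysis was possible because each line was measured once and replicate numbers only follow the order of the samples. Depth limits KLB and FGF19 most, since 19 and 12 lines hold fewer than 20 counts of them.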
